A study of Mus musculus with 6 samples.

Results

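The transcripts described here are 10 genes of the endoplasmic reticulum (ER) stress response in mouse liver, chosen by name from the 25102 genes of the deposited expression table: Hspa5, Creld2, Dnajb9, Herpud1, Xbp1, Atf4, Atf5, Ddit3, Trib3 and Asns. All 10 were present in the table, once each. The study compared 3 livers of male C57BL/6J mice that received DEN+CCl4, the carcinogen diethylnitrosamine followed by carbon tetrachloride, a model of chemically induced hepatocellular carcinoma, with 3 control livers. The former are called treated livers below, and values are in the order of replicates 1, 2 and 3. The mice were 2 weeks old at the start. The treated mice had 1 dose of DEN (1 mg/kg), a DNA-alkylating carcinogen once activated by hepatocytes, and about 6 weeks later CCl4 (0.2 mL/kg), a hepatocyte toxin, 2 times a week for no more than 14 weeks. The labels name no vehicle for the controls, do not say whether a treated library is tumour or surrounding liver, and give only a replicate number per animal, so p-values reflect only the spread among these 6 libraries, part of which may be technical.

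Secreted and membrane proteins fold in the ER, and a hepatocyte exports large amounts of them. When unfolded proteins build up, 3 sensors in the ER membrane answer: Ire1 (gene Ern1) splices the Xbp1 mRNA into the form that encodes an active transcription factor, Atf6 is cleaved into another, and Perk (gene Eif2ak3) phosphorylates the translation factor eIF2. The last step slows protein synthesis but favours translation of Atf4, and other eIF2 kinases reach the same step from amino acid shortage, haem deficiency or viral RNA, which is why that arm is called the integrated stress response. Xbp1 and Atf6 act on chaperone and degradation genes through the ER stress element, and Atf4 acts on Ddit3, Trib3, Asns and others through the C/EBP-ATF response element.

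The promoters of 5 of the 10 genes hold such elements, and these stretches are shown because they are where the elements of the ER folding arm and of the Atf4 arm were found. Herpud1 holds one of each arm, and Dnajb9, Xbp1, Atf4, Atf5 and Ddit3 hold none of the motifs searched. RefSeq promoter windows on GRCm38.p6, from 250 bases before to 50 after the start, were found for all 10 genes (11 windows, 2 of them for Atf5), and both strands were searched. The ER stress element was taken as CCAAT, 9 bases and CCACG, the ER stress element II as ATTGG, 1 base and CCACG, the C/EBP-ATF response element as TGATGNAA, and the UPR element as TGACGTGG. The ER stress element was found in Hspa5 and Creld2 and in 0.119% of all 32851 windows (39). The element II was found in Herpud1 and in 0.0365% of all windows (12). The C/EBP-ATF element was found in Herpud1, Trib3 and Asns and in 3.97% of all windows. The UPR element was found in none of the 11 windows and in 0.676% of all windows. A match describes letters only, and its absence says nothing about a factor. Each stretch below is written 5′ to 3′ on the strand of its gene, and capitals mark the fixed letters of the motifs. In Creld2 the element, and in Herpud1 and Trib3 the C/EBP-ATF element, lies on the opposite strand, so its reverse complement is in capitals.

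Hspa5, chr2:34772020-34772048, plus strand, bases -70 to -42, ER stress element: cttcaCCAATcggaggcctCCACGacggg
Creld2, chr15:88819500-88819558, plus strand, bases -146 to -88, ER stress element: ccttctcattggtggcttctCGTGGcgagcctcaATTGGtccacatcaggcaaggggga
Herpud1, chr8:94386297-94386407, plus strand, bases -132 to -22, C/EBP-ATF element and ER stress element II: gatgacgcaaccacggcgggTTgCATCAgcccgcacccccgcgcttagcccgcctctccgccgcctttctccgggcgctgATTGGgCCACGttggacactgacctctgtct
Trib3, chr2:152344028-152344057, minus strand, bases 4 to 33, C/EBP-ATF element: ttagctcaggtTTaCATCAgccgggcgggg
Asns, chr6:7693214-7693243, minus strand, bases -34 to -5, C/EBP-ATF element: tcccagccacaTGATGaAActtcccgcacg

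The Hspa5 and Asns stretches lie upstream of the RefSeq start but within an exon of a longer GENCODE M21 transcript, and the Trib3 stretch lies just after the RefSeq start.

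Expression was given as FPKM, fragments normalised to gene length and library total, and 8528 genes averaging 1 FPKM or more were tested, all 10 ER stress genes among them. The table gives no counts, so read depth is unknown. Treated replicate 3 stood apart: mitochondrially encoded genes took 64.2% of its summed FPKM against 26.6% to 43.0% in the other libraries, and its median tested gene stood at 1.19 FPKM against 3.43 to 4.46 FPKM. Values are therefore also given after median-ratio scaling, which divides each library by the median, over genes, of its ratio to the geometric mean of all libraries. This raised treated replicate 3 by 2.81-fold and lowered the other libraries to 0.729 to 0.865 of their deposited values. The median log2 fold change over the tested genes moved from -0.27 to 0.01.

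None of the 10 genes differed between the groups by limma's test as deposited, after Benjamini-Hochberg adjustment over 8528 genes (adjusted p from 0.260 for Asns to 0.998 for Atf4). That test called 1.48% of all tested genes (126), 0.833% higher and 0.645% lower. Of the 10, 1 (Asns) had an unadjusted p under 0.05, against 7.60% of all tested genes (2.53% higher and 5.07% lower). Asns, counted here and after scaling, passed the filter of 1 FPKM only through the treated group, which favoured counting it as higher. In bulk liver, fewer cells of a type and less RNA per cell cannot be told apart. After scaling, limma called 0.0% of all genes and 0 of the 10, and 3 of the 10 (Ddit3, Asns and Creld2) had an unadjusted p under 0.05, all higher, against 5.49% of all tested genes higher and 5.23% lower at that level. As deposited, 7 of the 10 log2 fold changes were positive with a median of 0.53, and after scaling 9 were positive with a median of 0.97. Of all 8528 tested genes, 2187 were positive as deposited and 4382 after scaling, the background for the sign counts of the lists below too. As deposited, the groups overlapped for all 10 genes, whereas 8.36% of all tested genes did not overlap (3.01% higher and 5.35% lower). The treated libraries differed among themselves. Treated replicate 2 lay above all 3 controls for 9 of the 10 genes (45.1% of all tested genes did so). Treated replicate 1 did for 4 (25.8% of all). Treated replicate 3 lay above all controls for 4 (5.66% of all) and below them for 3 (83.9% of all), while replicates 1 and 2 were below all controls for 0 of the 10 (11.9% and 22.7% of all). After scaling, replicates 1, 2 and 3 lay above all controls for 3, 9 and 7 of the 10 (18.2%, 34.1% and 37.3% of all) and below them for 1, 0 and 2 (18.2%, 31.4% and 37.1% of all).

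**Figure D1:**
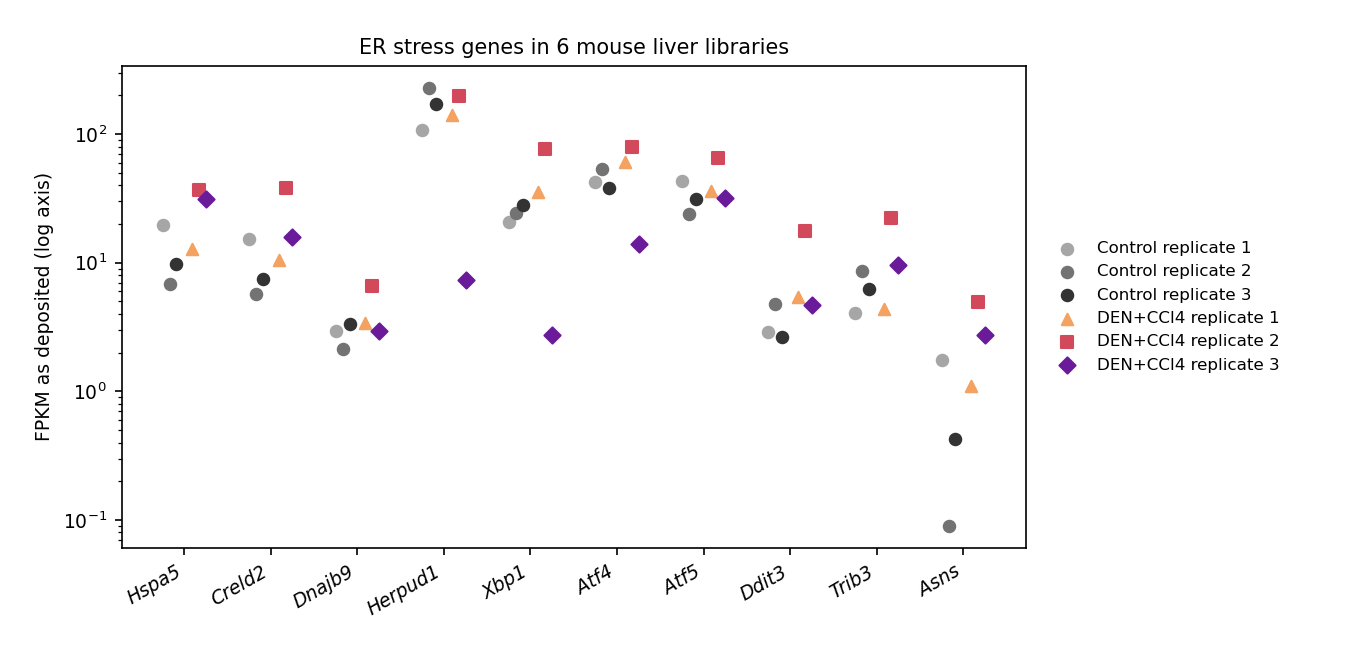
FPKM as deposited, on a log axis, of the 10 genes in the 3 control and 3 DEN+CCl4 libraries, 1 point per library. DEN+CCl4 replicate 2 is the highest point for 9 genes, and DEN+CCl4 replicate 3 is far below all others for Herpud1 (7.30 FPKM) and Xbp1 (2.72 FPKM).

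The order of the deposited group means was the same in both groups. By mean FPKM, which is scaled by gene length, control liver ranked Herpud1 (169), Atf4 (44.6), Atf5 (32.7), Xbp1 (24.5), Hspa5 (12.1), Creld2 (9.45), Trib3 (6.29), Ddit3 (3.44), Dnajb9 (2.82) and Asns (0.760). Treated liver ranked them alike, from Herpud1 at 114 FPKM to Asns at 2.92 FPKM. In controls the ranges of neighbours in this order overlapped, except those of Herpud1 and Atf4, of Xbp1 and Hspa5, and of Dnajb9 and Asns. Within each control library, Hspa5 also lay above Creld2 and Trib3 above Ddit3. After scaling, the treated means were ordered otherwise, with Atf5 (55.2) above Atf4 (48.1) and Hspa5 (41.6) above Xbp1 (30.4). Treated replicate 3 also departed from the order as deposited, with Atf5 (31.97 FPKM) and Hspa5 (31.33 FPKM) above Herpud1 (7.30 FPKM). The most abundant of the chosen transcripts in control liver were thus the degradation factor Herpud1 and the transcription factors Atf4, Atf5 and Xbp1. The chaperone Hspa5 lay below them, and the transcription factor Ddit3 lay lower than Hspa5.

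Among the genes that serve folding, Hspa5 encodes BiP, the main Hsp70 chaperone of the ER lumen, which also holds the 3 sensors inactive (chromosome 2, 34771970 to 34777547, plus strand, GRCm38). Hspa5 measured 19.53, 6.84 and 9.80 FPKM in control replicates 1, 2 and 3 and 12.67, 36.92 and 31.33 FPKM in the treated livers. Treated replicates 2 and 3 lay above every control, and replicate 1 lay among the controls. The means were 12.1 ± 6.64 and 27.0 ± 12.7 FPKM (SD, n = 3 each), a log2 fold change on the log2(FPKM + 1) scale of 1.09 with an SE of 0.82 (limma adjusted p = 0.959). All fold changes given here are on that log2(FPKM + 1) scale, which understates changes of low genes. After scaling, Hspa5 stood 0.09, 1.45 and 3.12 from the control mean in the treated livers (log2 fold change 1.55, SE 0.75, limma adjusted p = 0.502).

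Creld2, a disulfide-handling protein secreted under ER stress (chromosome 15, 88819646 to 88826683, plus strand), showed the same arrangement. Its control values were 15.21, 5.70 and 7.44 FPKM and its treated values 10.44, 38.41 and 15.91 FPKM. Replicate 2 was the highest library and replicate 3 only just passed control replicate 1, while replicate 1 lay among the controls (log2 fold change 1.02, SE 0.78, limma adjusted p = 0.966). After scaling, replicates 2 and 3 stood 1.80 and 2.46 above the control mean (log2 fold change 1.47, SE 0.63, limma adjusted p = 0.466). The ratio of Creld2 to Hspa5 within a library, which does not depend on the library's scale, was 0.779, 0.833 and 0.759 in controls and 0.824, 1.04 and 0.508 in the treated livers. This ratio thus varied little in the controls, with an SD of 0.0695 on the log2 scale, and the treated libraries spread to either side (SD 0.528). Both promoter windows hold the ER stress element, whose part in the ratio was not tested.

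Dnajb9, the co-chaperone ERdj4 that delivers misfolded proteins and BiP to Ire1 and to degradation (chromosome 12, 44205559 to 44210326, minus strand), was low throughout. It read 2.96, 2.14 and 3.36 FPKM in controls against 3.37, 6.59 and 2.92 FPKM in treated livers. Replicate 2 lay well above the controls as deposited, replicate 1 lay level with the highest control, and replicate 3 lay among them (log2 fold change 0.42, SE 0.56, limma adjusted p = 0.996). After scaling, replicate 3 was the highest library, at 8.20 against 1.85 to 2.67 in the controls (log2 fold change 0.80, SE 0.36, limma adjusted p = 0.478).

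Herpud1 was far lower in one treated library. It encodes a membrane protein that assembles the ubiquitin ligase of ER-associated degradation (chromosome 8, 94386438 to 94395377, plus strand). Herpud1 measured 107.76, 228.39 and 170.05 FPKM in controls against 139.89, 195.95 and 7.30 FPKM in treated livers. The first pair of treated values lay within the control range and the last lay far below it. The group log2 fold change was -1.40 with an SE of 1.04 (limma adjusted p = 0.954), and 0.04 without treated replicate 3. After scaling, treated replicate 3 was still below all controls, at 20.5 against 92.4 to 197 (log2 fold change -0.96, SE 0.76, limma adjusted p = 0.668). Herpud1 carries both an ER stress element II and a C/EBP-ATF element in the stretch printed above, and in replicate 3 it was below all controls while Hspa5 and Trib3 were above them. The ratio of Herpud1 to Hspa5 was 5.52, 33.4 and 17.4 in controls and 11.0, 5.31 and 0.233 in treated liver. The difference between the group means of this log2 ratio was -2.62, and the groups overlapped (exact two-sided permutation p = 0.2, 0.533 after adjustment over the 8 ratios computed).

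**Figure D2:**
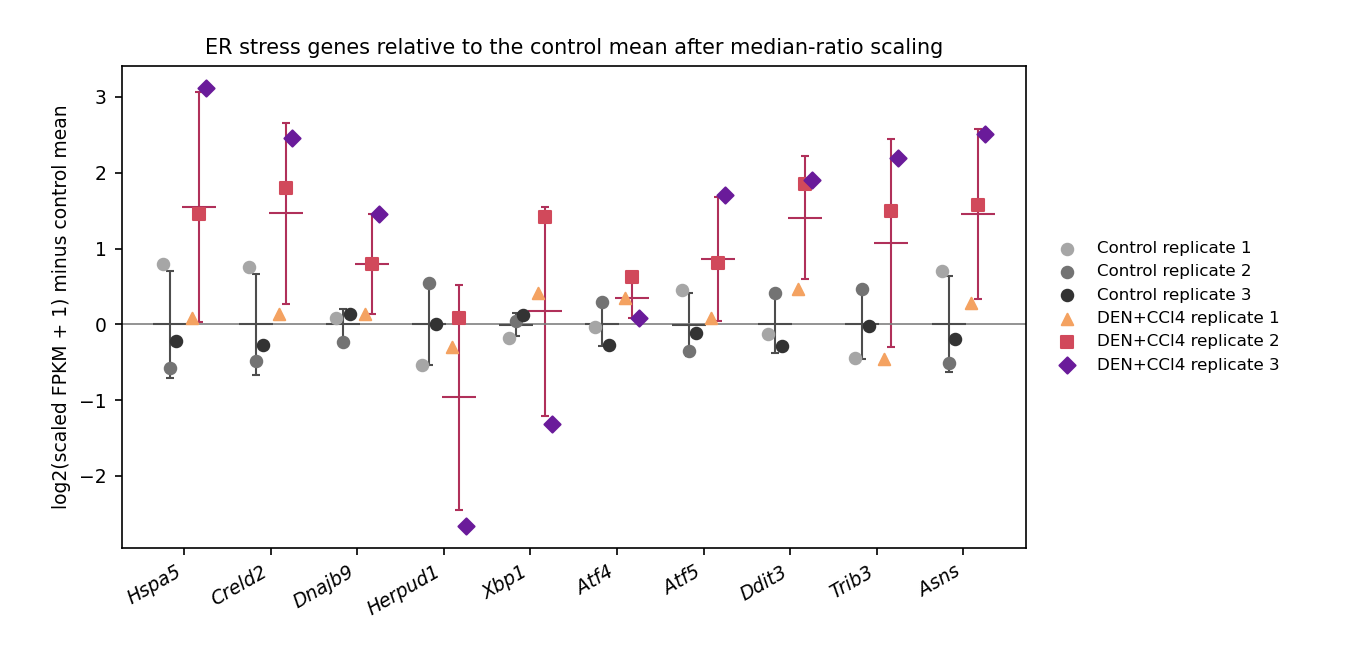
Difference of log2(scaled FPKM + 1) from the control mean for the 10 genes after median-ratio scaling, 1 point per library, with horizontal bars for group means and error bars of 1 SD. DEN+CCl4 replicate 3 is the highest library for Hspa5 (3.12 above the control mean) and the lowest for Herpud1 (-2.66) and Xbp1 (-1.31).

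Of the transcription factors, Xbp1 is the target of Ire1 and drives chaperone and secretory genes once spliced (chromosome 11, 5520659 to 5525893, plus strand). The table gives 1 value for the gene, so the spliced and unspliced forms were not separated. Xbp1 was even across controls, at 20.90, 24.53 and 28.11 FPKM, and spread widely in treated liver, at 35.28, 76.59 and 2.72 FPKM. Treated replicates 1 and 2 were above every control and replicate 3 was below every control, which also held after scaling (27.6, 55.8 and 7.64 against 17.9 to 22.3). The log2 fold change was -0.21 as deposited (SE 0.88, limma adjusted p = 0.996) and 0.17 after scaling (SE 0.65, limma adjusted p = 0.939), so its sign changed with the scaling. Without treated replicate 3 it was 1.07 as deposited (limma adjusted p = 0.608). Xbp1 and Hspa5 thus parted in that library: the ratio of Xbp1 to Hspa5 was 0.0868 there and between 1.07 and 3.59 in the other 5 libraries.

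Atf4, the factor translated when eIF2 is phosphorylated (chromosome 15, 80255184 to 80257541, plus strand), was high in all libraries. It read 42.42, 53.10 and 38.41 FPKM in controls against 60.49, 79.00 and 14.05 FPKM in treated livers. As deposited, replicate 3 was below all controls, while after scaling its value of 39.4 lay inside the control range of 30.5 to 45.9. The log2 fold change was -0.11 as deposited (SE 0.95, limma adjusted p = 0.998) and 0.35 after scaling (SE 0.37, limma adjusted p = 0.757). Its rank among the tested genes of each library was between percentiles 90.6 and 96.1 in every library. Atf4 protein is set largely at translation, which these values do not measure.

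Atf5, a related factor that is also controlled by translation and by Ddit3 (chromosome 7, 44812256 to 44816658, minus strand), read 42.99, 24.00 and 31.12 FPKM in controls against 36.13, 65.11 and 31.97 FPKM in treated livers. Only replicate 2 was above every control as deposited, and replicates 2 and 3 were after scaling. The log2 fold change was 0.40 (SE 0.93, limma adjusted p = 0.996), and 0.87 after scaling (SE 0.50, limma adjusted p = 0.562). Exons of Nup62 and Il4i1 on the opposite strand share 4.11% of its exon bases (Nup62 read 0.45 to 3.14 FPKM), and without known strand use such shared reads cannot be told apart.

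Ddit3 encodes CHOP, the factor that turns a lasting stress response towards cell death (chromosome 10, 127290774 to 127296288, plus strand). Its values were 2.91, 4.74 and 2.66 FPKM in controls against 5.46, 17.53 and 4.70 FPKM in treated livers. As deposited, treated replicate 3 lay just below control replicate 2, and the other treated libraries lay above all controls. After scaling, all 3 treated libraries, at 4.28, 12.8 and 13.2, were above the controls, at 2.11 to 4.10, and Ddit3 was the only one of the 10 genes whose groups did not overlap. Of all tested genes, 7.63% were higher and 6.52% lower without overlap after scaling, so 1 of 10 is near the background. The log2 fold change was 1.02 (SE 0.63, limma adjusted p = 0.843), and 1.41 after scaling (SE 0.44, limma adjusted p = 0.453; unadjusted p = 0.0129). Its exons share 3.97% of their bases with the opposite-strand gene Mars, which read 2.35 to 9.96 FPKM and was lowest in treated replicate 3. A second annotated Ddit3 locus on the same strand covers 6.13% of them, so shared reads of these genes cannot be told apart either.

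The ratio of Ddit3 to Atf4, with both values from the same library, was 0.0686, 0.0893 and 0.0693 in controls and 0.0903, 0.222 and 0.335 in the treated livers. It was the only one of the 8 ratios without overlap between the groups (log2 difference 1.33; exact two-sided permutation p = 0.1, the smallest that 3 against 3 libraries allow, and 0.533 after adjustment over the 8 ratios). Replicate 1 passed the highest control by a small margin.

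Trib3, a pseudokinase induced by Atf4 and Ddit3 that damps both Akt signalling and Atf4 itself (chromosome 2, 152337422 to 152344032, minus strand), read 4.04, 8.55 and 6.29 FPKM in controls against 4.36, 22.21 and 9.55 FPKM in treated livers. Replicates 2 and 3 lay above every control and replicate 1 near the lowest control. The log2 fold change was 0.63 (SE 0.69, limma adjusted p = 0.996), and 1.08 after scaling (SE 0.65, limma adjusted p = 0.576). Relative to Atf4, Trib3 was at 0.0952, 0.161 and 0.164 in controls and at 0.0721, 0.281 and 0.680 in the treated livers.

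Asns, asparagine synthetase, the textbook target of the amino acid arm (chromosome 6, 7675169 to 7693254, minus strand), had the lowest level and the widest relative spread. It read 1.76, 0.09 and 0.43 FPKM in controls against 1.10, 4.91 and 2.76 FPKM in treated livers. Replicates 2 and 3 were above every control and replicate 1 was between them. The log2 fold change was 1.15 (SE 0.44, limma adjusted p = 0.260; unadjusted p = 0.00951) and 1.45 after scaling (SE 0.57, limma adjusted p = 0.453). With a control mean of 0.760 FPKM, Asns passed the filter of 1 FPKM only through the treated group.

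**Figure D3:**
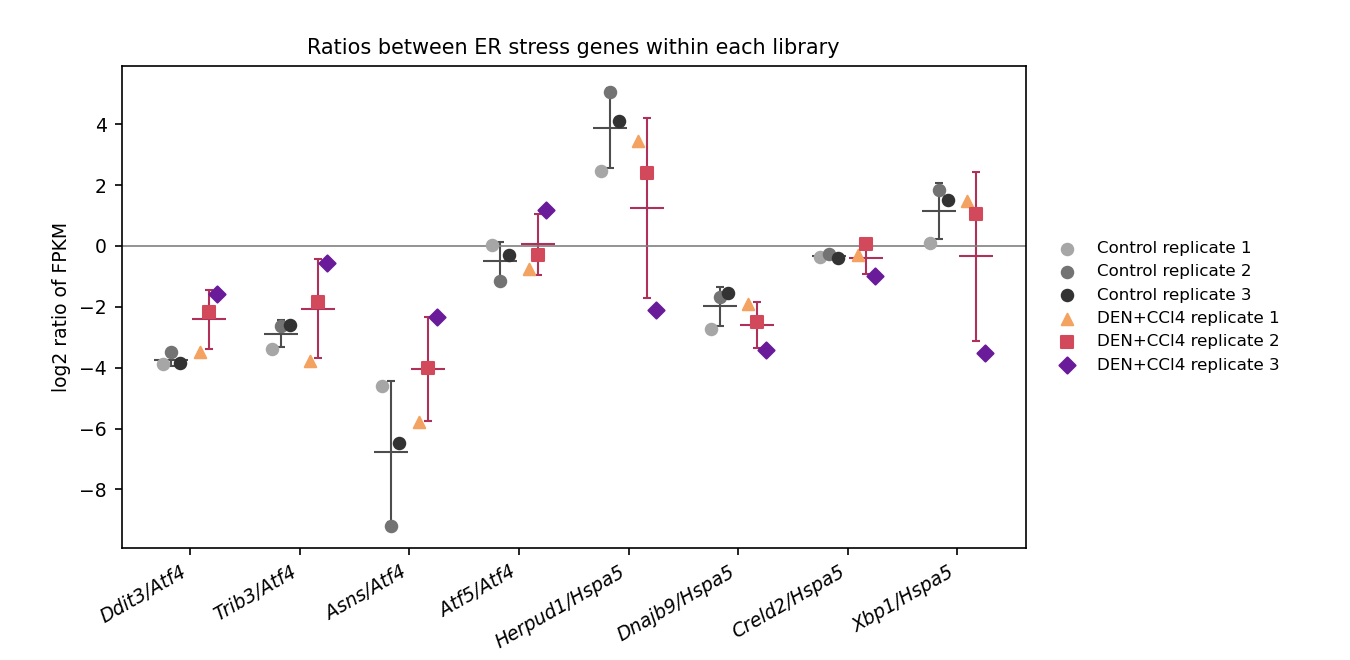
Log2 ratios of FPKM between pairs of the genes within each library, 1 point per library, with horizontal bars for group means and error bars of 1 SD. Ddit3/Atf4 is higher in all 3 DEN+CCl4 libraries than in any control, and Herpud1/Hspa5 and Xbp1/Hspa5 drop furthest in DEN+CCl4 replicate 3.

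Ranks within each library, which also do not depend on its scale, are given next. Hspa5 stood at percentiles 84.9, 69.3 and 74.0 of the tested genes in controls and at percentiles 79.1, 92.4 and 96.9 in the treated livers. Ddit3 stood at percentiles 44.5, 59.5 and 39.0 in controls and 60.9, 84.9 and 84.3 in treated liver, without overlap (difference of means 29.0 points; exact two-sided permutation p = 0.1, 0.333 after adjustment over the 10 genes). Of all tested genes, 7.75% were higher and 7.19% lower in rank without overlap. Xbp1 was between percentiles 85.8 and 96.0 in 5 libraries and at 74.0 in treated replicate 3. Asns stood at percentiles 27.0, 0.5 and 2.0 in controls and 6.1, 53.2 and 74.3 in treated liver. For 8 of the 10 genes the mean rank was higher in treated liver, the exceptions being Herpud1 and Xbp1.

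**Figure D4:**
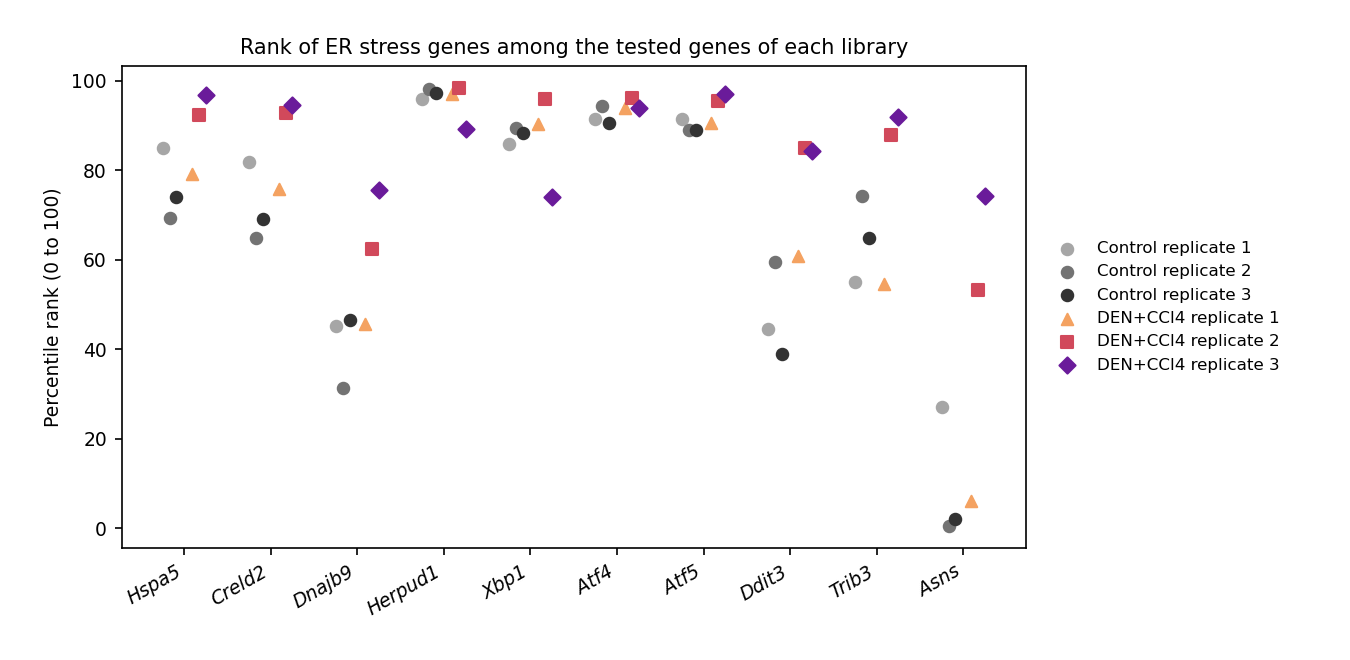
Percentile rank of each of the 10 genes among the 8528 tested genes of the same library, 1 point per library. Ranks of Hspa5, Creld2, Dnajb9, Atf5, Trib3 and Asns are highest in DEN+CCl4 replicates 2 and 3, Ddit3 ranks lie above all controls in all 3 treated libraries, and Atf4 stays near the top throughout.

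The genes most like 4 of the 10 in pattern were sought among 2918 named genes averaging 5 FPKM or more, by Pearson's r of scaled log2 values over the 6 libraries. For Hspa5 the closest gene was another of the 10, Atf5 (r = 0.9995, Spearman's rho 1.0), which ranked the 6 libraries in the same order, followed by Gpi1, glucose-6-phosphate isomerase (r = 0.996), and Ctnna1, alpha-catenin (r = 0.9883). For Atf5 they were Hspa5, Gpi1 (r = 0.9965) and Ctnna1 (r = 0.9905). With control replicate 2 and treated replicate 3 left out, the libraries farthest from the median of Hspa5, r with Gpi1 and Ctnna1 was 0.985 and 0.981. For Ddit3 the closest were the antiproliferative p53 target Btg2 (r = 0.987), Fibp (r = 0.9829) and the DNA repair gene Alkbh2 (r = 0.9829), and for these r was 0.865, 0.822 and 0.911 without treated replicates 2 and 3. For Atf4 they were Snord34 (r = 0.981), Pyroxd2 (r = 0.9753) and the RNA-binding protein gene Hnrnpa2b1 (r = 0.9646), with r of 0.969, 0.914 and 0.927 without control replicate 3 and treated replicate 2. These r describe 6 points picked from many genes, and all share the spread between treated libraries.

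Upstream of the 10, the list of sensors, eIF2 kinases, proteases and phosphatase subunits had 9 of 13 genes tested, of which 0 were higher and 0 lower by limma's adjusted p. Their median log2 fold change was -0.20 against -0.27 for all tested genes, and 0.04 against 0.01 after scaling. Ern1, the Ire1 sensor, read 1.63, 2.87 and 2.01 FPKM in controls against 3.67, 9.15 and 1.00 FPKM in treated livers. As deposited, treated replicate 3 thus lay below every control. After scaling, Ern1 lay above all controls in all 3 treated libraries, as did 7.63% of all tested genes (log2 fold change 0.79 after scaling, SE 0.34, limma adjusted p = 0.463). Atf6 read 0.84 to 1.67 FPKM in controls and 0.47 to 1.34 FPKM in treated liver. Eif2ak3, the Perk sensor, was below the filter, at 0.51 to 0.61 FPKM in controls against 0.62, 1.96 and 0.14 FPKM in treated livers. The genes of this list with the highest mean over all 6 libraries were Creb3l3, a liver factor activated by the same cleavage as Atf6, at 71.0 ± 18.4 and 41.6 ± 29.6 FPKM (SD, n = 3; limma adjusted p = 0.989), and Ppp1r15b, a subunit of the eIF2 phosphatase, at 6.35 ± 1.21 and 5.14 ± 3.81 FPKM (limma adjusted p = 0.996).

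The other ER chaperones and folding enzymes, all 22 tested, had 0 called higher and 0 called lower. Their median was -0.14 as deposited and 0.30 after scaling, when 17 were positive and 5 negative. Per library, their median distance from the control mean after scaling was -0.06, 0.36 and 0.71 in treated livers 1, 2 and 3, and 0.43, -0.41 and 0.06 in control replicates 1, 2 and 3, so replicates 1 and 2 of the treated group stayed within the control range. The calcium-binding chaperone Calr averaged 204 ± 50.2 FPKM in controls against 158 ± 100 FPKM in treated liver (limma adjusted p = 0.996), and the disulfide isomerase P4hb averaged 168 ± 57.6 and 159 ± 76.8 FPKM (limma adjusted p = 0.996). Hsp90b1, the Hsp90 of the ER lumen, was at 71.75, 28.94 and 48.16 FPKM in controls against 39.39, 51.79 and 23.46 FPKM in treated livers. Hsp90b1 and Calr hold the ER stress element in their promoter windows, as Hspa5 and Creld2 do, and after scaling their log2 fold changes were 0.12 and -0.19 against 1.55 and 1.47. Other genes of the chaperone and degradation lists with this element lay between Calr and Creld2. These were Ero1lb (Ero1b among the promoter windows) at -0.01, Canx at 0.27, Dnajc3 at 0.28, Derl3 at 0.62, Pdia6 at 0.69 and Syvn1 at 1.10. Hyou1, an Hsp110 family nucleotide exchange factor of BiP, read 0.78, 1.04 and 1.13 FPKM in controls against 2.48, 9.19 and 1.18 FPKM in treated livers. Each treated library was above every control, as for 3.01% of all tested genes as deposited (log2 fold change 1.11, SE 0.48, limma adjusted p = 0.429). Hyou1 too reached the filter through the treated group.

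Genes of ER-associated degradation (18 of 20 tested) had 0 calls in either direction and a median of -0.23, or 0.17 after scaling. Os9, a lectin that hands misfolded glycoproteins to degradation, was at 72.1 ± 14.3 and 52.9 ± 35.2 FPKM (limma adjusted p = 0.996). Syvn1, the ubiquitin ligase Hrd1 with which Herpud1 works, read 9.81, 17.94 and 12.34 FPKM in controls against 22.99, 115.89 and 3.28 FPKM in treated livers, so, like Xbp1, it was above the controls in the first pair and below them in the last as deposited (limma adjusted p = 0.996). Genes of translocation into and export from the ER (30 of 32 rows tested, 2 of the rows carrying the symbol Srp54a) had 0 calls and a median of -0.04, or 0.31 after scaling, when 26 were positive and 4 negative. The retrieval receptor Kdelr2 was at 24.5 ± 7.72 and 20.7 ± 13.2 FPKM and the translocation protein Tram1 at 19.9 ± 5.74 and 19.4 ± 9.48 FPKM (limma adjusted p = 0.996 for each).

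Among 37 further targets of Atf4 and CHOP, 24 were tested, 1 rose and 0 fell (against 0.833% and 0.645% of all tested genes), with a median of -0.17, or 0.23 after scaling. The gene that rose was Fgf21, a liver hormone of fasting and amino acid shortage that fatty acid receptors also induce. Fgf21 read 0.05, 0.74 and 0.81 FPKM in controls against 0.57, 9.78 and 4.19 FPKM in treated livers, so replicate 1 lay among the controls (log2 fold change 1.58, SE 0.46, limma adjusted p = 0.0480). Fgf21 was under the filter in controls and passed it through the treated group. The call was lost in 21 of the 23 alternatives that tested Fgf21 (limma adjusted p from 0.0017 to 0.984), including median-ratio scaling (0.453) and leaving out any library but treated replicate 1.

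After scaling, 9 of the 37 Atf4 and CHOP targets lay above all controls in all 3 treated libraries and 2 (Bbc3 and Vldlr) below, against 7.63% and 4.60% of all genes of the table. Of the 9, 5 were too low to be tested, such as Mthfd2, which as deposited read 0.06 FPKM in treated replicate 3 and 0.05 to 0.06 FPKM in controls. Among the 24 tested targets, 4 lay above (Slc1a5, Nupr1, Pck2 and Cebpg) and 1 below, against 7.63% and 6.52% of all tested genes. Pck2, with means of 0.893 FPKM in controls and 1.67 FPKM in treated liver, passed the filter through the treated group, as Nupr1 did. The filter thus favoured counting Pck2 and Nupr1 as higher. Nupr1, a stress-induced chromatin protein that passed the filter through the treated group, read 0.60, 0.56 and 0.38 FPKM in controls against 0.91, 5.08 and 1.95 FPKM in treated livers (log2 fold change 1.10, SE 0.42, limma adjusted p = 0.246). The untested ones included Psat1 and Phgdh of serine synthesis, Psat1 at 0.03 to 0.08 FPKM in controls against 0.15, 2.39 and 1.11 FPKM in treated livers, and Phgdh at 0.04 to 0.20 FPKM and 0.51, 3.67 and 0.91 FPKM. Cth, the enzyme that makes cysteine from cystathionine, read 38.90, 17.22 and 36.82 FPKM in controls against 27.44, 3.88 and 1.53 FPKM in treated livers (log2 fold change -2.10, SE 0.79, limma adjusted p = 0.249), so treated replicates 2 and 3 lay below every control and replicate 1 among them. The abundant members Shmt2, mitochondrial serine hydroxymethyltransferase, and Gpt2, an alanine transaminase, were at 79.7 ± 7.69 and 48.2 ± 36.8 FPKM and at 53.6 ± 11.2 and 40.3 ± 28.5 FPKM (limma adjusted p = 0.989 and 0.996).

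Cytosolic aminoacyl-tRNA synthetases, which charge tRNAs and include Atf4 targets, had 0 of 20 called and a median of -0.17, or 0.19 after scaling, when 15 were positive. The abundant Aars and Nars, for alanine and asparagine, were at 16.3 ± 2.80 and 10.3 ± 8.25 FPKM and at 9.69 ± 1.70 and 8.97 ± 3.79 FPKM (limma adjusted p = 0.983 and 0.996). Chaperones and proteases of the mitochondrial stress response, which Atf5 is known to serve, had 0 of 12 called and a median of -0.52, or -0.15 after scaling, when 10 of 12 were negative. Among them the protease subunit Clpp was at 59.4 ± 10.9 and 35.7 ± 26.0 FPKM and the chaperonin Hspe1 at 30.8 ± 14.1 and 21.8 ± 15.8 FPKM (limma adjusted p = 0.996 for each).

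**Figure D5:**
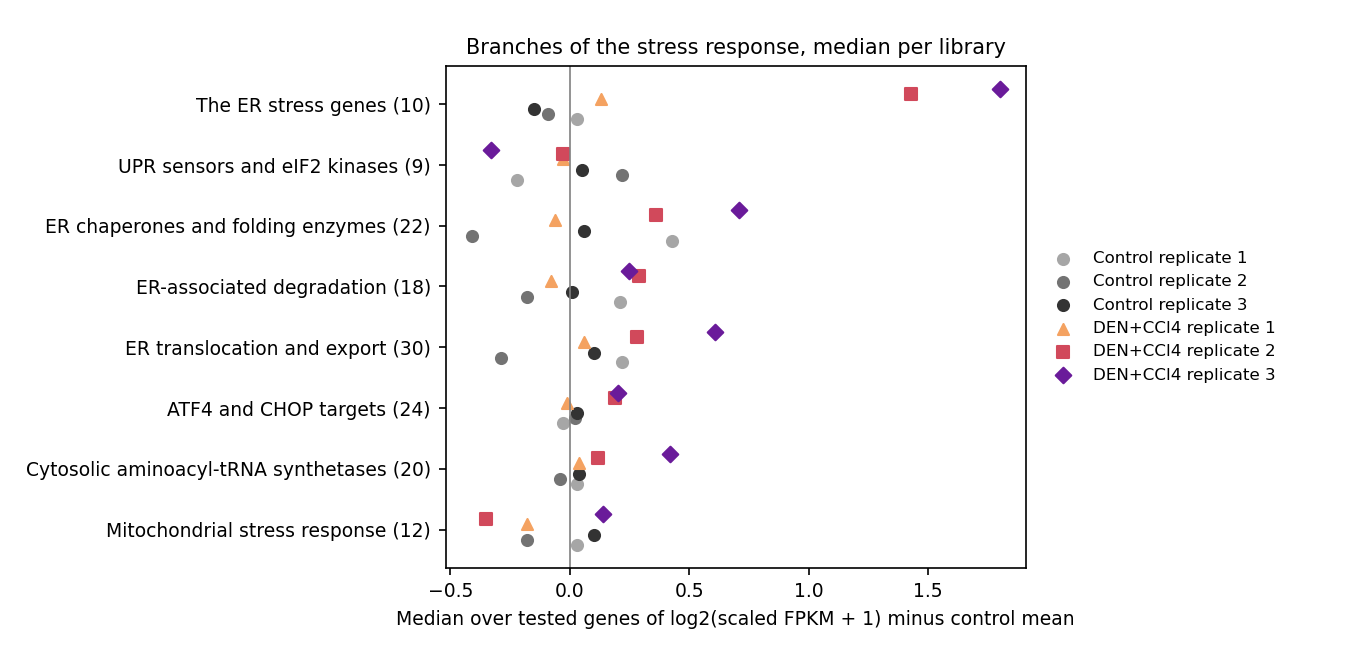
Median, over the tested genes of each list (number in brackets), of log2(scaled FPKM + 1) minus the control mean, 1 point per library. The median of the 10 ER stress genes was 0.13, 1.43 and 1.80 in DEN+CCl4 replicates 1, 2 and 3, and those of the other lists lie between -0.35 and 0.71 in the treated libraries.

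The 10 genes were picked with results of these libraries known, so the distance between their median and that of the other lists is a description. Without treated replicate 1 and after median-ratio scaling, limma called 4 of the 10 higher, Ddit3 (adjusted p = 0.0199), Trib3 (0.0392), Asns (0.0399) and Creld2 (0.0429), against 3.45% of all tested genes called higher and 4.24% lower in that fit. With that library left out but no scaling, 0 of the 10 were called, against 4.44% of all tested genes (1.28% higher and 3.17% lower). Replicate 1 was the treated library whose median over the 10 genes lay nearest to the controls (0.13 after scaling), so leaving it out favours a difference. Asns, with a control mean of 0.760 FPKM, also passed the filter only through the treated group, which favoured counting it as higher.

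Markers of other cell types also differed between these libraries, and their part in the values above was not tested. Summed FPKM of 8 hepatocyte markers was 30900 to 47400 in controls and 12700 to 65200 in treated liver. After scaling, 3 of the 8 had positive and 5 negative log2 fold changes, from -2.79 for Hpd, a tyrosine-degrading enzyme, to 0.43 for the lipoprotein gene Apoa1. Hpd read 1024.31 to 1300.51 FPKM in controls against 1182.69, 240.47 and 4.97 FPKM in treated livers, and Apoa1 10627.76 to 12689.47 against 10250.08, 35124.93 and 4111.28 FPKM. Stellate cell and myofibroblast markers (7) summed to 7.48 to 11.8 and 13.6 to 35.0 FPKM, and after scaling 5 of the 7 were above all controls in every treated library, as Ddit3 was, against 7.63% of all genes of the table. Lrat, which marks quiescent stellate cells, was not among them, at 0.40 to 0.58 FPKM in controls against 0.31, 0.35 and 0.15 FPKM in treated livers. Neutrophil markers (5) summed to 2.13 to 5.99 and 5.49 to 22.9 FPKM. Of these, S100a8 read 0.34 to 0.76 FPKM in controls, so that it passed the filter through the treated group, against 3.19, 1.38 and 8.96 FPKM in treated livers. It was the only marker gene called as deposited (log2 fold change 1.63, limma adjusted p = 0.0336, against 0.833% of all tested genes called higher), and the call was lost after scaling (limma adjusted p = 0.462). The other neutrophil markers overlapped the controls. S100a9 read 1.30 to 3.72 FPKM in controls against 10.75, 3.64 and 12.41 FPKM in treated livers. Mpo, Elane and Retnlg were too low to be tested, with Elane at 0 to 0.29 FPKM in controls against 1.19, 0 and 0.21 FPKM in treated livers. T and NK cell markers (7) summed to 3.82 to 4.67 and 5.43 to 12.6 FPKM, and cholangiocyte markers (6) to 9.21 to 16.4 and 14.5 to 34.0 FPKM. Most of the latter sum was Spp1, at 8.20 to 14.88 FPKM in controls and 12.93 to 27.37 FPKM in treated liver, whereas Epcam was lower in every treated library, at 0.17 to 0.22 against 0.11, 0.10 and 0 FPKM. Endothelial markers (6) summed to 9.25 to 16.9 and 6.12 to 18.9 FPKM, Kupffer cell and macrophage markers (7) to 40.6 to 112 and 33.8 to 67.5 FPKM, and markers of proliferation (5) to 0.46 to 0.96 and 0.79 to 1.24 FPKM. Of the proliferation markers, none was high enough to be tested. After scaling, 4 of the 5 were above all controls in every treated library, against 7.63% of all genes of the table. These were Cdk1, Top2a, Mki67 and Ccnb1, at 0 to 0.10 FPKM in controls and 0.05 to 0.31 FPKM in treated liver. As deposited, Cdk1 overlapped, at 0.09 FPKM in treated replicate 3 and 0.10 FPKM in control replicate 2. Birc5, the most abundant, was not above all controls in every treated library. Erythroid markers (5) summed to 236 to 639 FPKM in controls and to 447, 2650 and 142 FPKM in the treated livers. Treated replicate 2, the library with the highest values of 9 of the 10 genes, thus also had the highest sum of erythroid markers. Most of that sum was globin, such as Hba-a2 at 863.21 FPKM and Hba-a1 at 860.26 FPKM. The marker Alas2 went the other way in treated replicate 2, at 12.18 FPKM against 14.15 FPKM or more in controls. Plasma cells carry much Xbp1. Of 9 B and plasma cell markers, Tnfrsf17 was listed at 0 in all libraries but treated replicate 3, Jchain read 0.62 to 0.70 FPKM in controls and 0.87 to 1.15 FPKM in treated liver, and the sum was 14.3 to 19.0 and 5.88 to 26.0 FPKM.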

How the data were processed

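Poly(A) RNA of 6 mouse livers was sequenced, 3 control and 3 DEN+CCl4. Per the labels, total RNA with a RIN above 7 was used. The authors deposited FPKM values, fragments normalised to gene length and library total, with 2 decimals and 1 column per library. HISAT, StringTie and GRCm38 are named in the submitters' processing notes, and their versions, the annotation and the use of strand were not given there. No counts were used, so depth and counting error are unknown.

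Genes averaging 1 FPKM or more were tested as log2(FPKM + 1) with limma 3.58.1 in R 4.3.3 (empirical Bayes, intensity trend, two-sided, no covariates), with Benjamini-Hochberg adjustment over 8528 genes at 0.05. The fit was also run on simulated data in which all 6 libraries had the spread of the controls. No simulated library stood apart as treated replicate 3 did, so that run does not cover such a case. Ratios and ranks had exact permutation tests. Coordinates and overlaps are from GENCODE M21, promoters from RefSeq. Python 3.11.15, pandas 2.3.3 and numpy 2.4.6 were used. Alternatives were 2 other pseudocounts, 2 other filters, 4 other scalings, 3 other limma settings and each library left out, with and without scaling.

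The 10 genes and the lists were chosen with earlier results of these data known. The rule named the 10 genes, up to 4 called genes of each list and, where fewer than 2 were called, the 2 with the highest mean, and the 3 genes closest in pattern to Hspa5, Atf4, Atf5 and Ddit3. Named after their values were seen were Ern1, Atf6, Eif2ak3, Hyou1, Ero1lb, Canx, Dnajc3, Derl3, Pdia6, Syvn1, Nupr1, Slc1a5, Pck2, Cebpg, Mthfd2, Psat1, Phgdh, Bbc3, Vldlr, Cth and single cell type markers.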

Additional observations from a re-analysis of the deposited data

How the results depend on the processing

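The number of genes called over the whole table, 71 higher and 55 lower, changed under most alternatives, while 0 of the 10 ER stress genes were called under all but 1 of them. The calls numbered 6 higher and 3 lower with a pseudocount of 0.1, 4 and 0 with 0.01, 0 and 0 with no filter, 14 higher with a filter of 5 FPKM (lower calls within 1.5 times), 31 and 27 after rescaling to TPM, 6 and 3 with a common total outside mitochondrial genes, 287 and 134 with array weights, and 0 and 0 after median-ratio scaling, quantile normalization or without the intensity trend. Leaving out 1 library gave 0 to 109 higher and 0 to 270 lower, and after median-ratio scaling 0 and 0 except without DEN+CCl4 replicate 1 (294 higher and 362 lower, with 4 of the 10 genes higher). With the replicate number as a block, 62 genes were higher and 32 lower as deposited, and 0 were called in either direction after scaling. Deviations of same-numbered libraries had r of 0.03, 0.49 and -0.07. As only the pair numbered 2 deviated together, the numbers were not taken to pair the libraries. The block called 0 of the 10.

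Of the lists, Atf4 and CHOP targets had 1 higher call with array weights (not Fgf21, adjusted p = 0.806 there) and 1 without DEN+CCl4 replicate 1 (0 under the other alternatives; 3 higher and 1 lower without DEN+CCl4 replicate 1 after scaling). Leaving out 1 library as deposited gave 0 to 1 higher and 0 to 2 lower. Array weights gave 1 higher chaperone and 1 lower degradation gene, and scaling without DEN+CCl4 replicate 1 gave 2 higher chaperones and 1 higher translocation gene.

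Hspa5, Creld2, Dnajb9, Atf5, Ddit3 and Asns kept a positive fold change under every alternative run. Atf4 turned positive with median-ratio scaling (0.35, also with the replicate block, and 0.21, 0.22, 0.33, 0.47 or up to 0.51 with 1 library left out), quantile normalization (0.63), a common total outside mitochondrial genes (0.08), array weights (0.61) and as deposited without control replicate 2 or DEN+CCl4 replicate 3 (leaving out 1 library gave -0.57 to 0.63). Xbp1 turned positive with median-ratio scaling (0.17, also with the block, and -0.44 to 0.91 with 1 library left out, of which 0.05, 0.08, 0.20, 0.23 and 0.91 were positive), quantile normalization (0.34), array weights (0.44) and without DEN+CCl4 replicate 3 (range -1.13 to 1.07). Trib3 was -0.17 with array weights, which gave control replicate 3 a weight of 11.2 against 0.0621 to 3.58 for the others. Herpud1 ranged from -2.25 to 0.04 with 1 library left out. Without DEN+CCl4 replicate 3 the log2 ratios Atf5/Atf4, Creld2/Hspa5 and Xbp1/Hspa5 changed sign (ranges -0.03 to 0.93, -0.29 to 0.23 and -2.39 to 0.11), as did the rank differences of Herpud1 (-4.04 to 0.51) and Xbp1 (-5.60 to 5.39). Causes were not tested.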

Other observations

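Matched by symbol to the promoter windows, 15 tested genes hold the ER stress element. After scaling, 12 of them had a positive log2 fold change, against 4382 of all 8528 tested genes. Their median was 0.37 against 0.01 for all tested genes. Ero1lb, named Ero1b among the windows, also holds the element but was missed by this matching (log2 fold change -0.01 after scaling). The 15 include Hspa5 and Creld2 and the chaperone or degradation genes Calr, Canx, Dnajc3, Hsp90b1, Pdia6, Derl3 and Syvn1. For the C/EBP-ATF element, 160 tested genes had a median of -0.04, and for the UPR element 61 had a median of 0.10. These counts are descriptions, since the element genes include some of the 10.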
